A study of Mus musculus with 9 samples.

Results

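The genes described here are 9 mouse genes whose RNA is switched on when the kinase ERK is active and whose products, for the most part, damp the same signal: the Sprouty genes Spry1, Spry2 and Spry4, the Sprouty-related genes Spred1 and Spred2, the dual-specificity phosphatase genes Dusp4 and Dusp6, and the ETS transcription factor genes Etv4 and Etv5. They were chosen by name, with earlier results of these data known. All 9 were found among the 35275 Ensembl gene identifiers of the count table. RNA had been sequenced in bulk from the front of the newborn mouse eye at postnatal day 0, with cornea, iris, ciliary body and drainage structures kept and the lens taken out. The 6 mutant samples (Col4a1+/G1344D) were heterozygous for a missense change in Col4a1, the gene of a chain of type IV collagen, the sheet-forming collagen of basement membranes, and the 3 wildtype samples were Col4a1+/+. A sample was a pool of 4 eyes taken from 2 mice, so p-values measure the spread between pools, and the labels name no Cre driver or transgene.

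Fibroblast growth factors bind receptor tyrosine kinases at the cell surface, and adaptors, RAS, RAF and MEK pass the signal to ERK. Active ERK raises transcription of its own brakes. Sprouty and Spred proteins act between the receptor and RAF, Dusp6 removes phosphate from ERK in the cytoplasm and Dusp4 does so in the nucleus, while Etv4 and Etv5 are transcription factors that carry the FGF response to other genes. In the eye, FGF signalling is known for its part in lens induction, lacrimal gland budding and growth of the corneal epithelium. The 9 genes are therefore read in many tissues as reporters of ERK activity, although receptors for EGF, PDGF and other factors feed the same cascade.

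The libraries held between 28440874 and 35306935 counts in mutants and between 25995340 and 28356439 in wildtypes. The tissue label was met by its markers: epithelial genes such as Krt5, Krt12 and Pax6, stromal genes such as Kera and Lum, and the mesenchymal gene Foxc1 were present in both genotypes, while the beta and gamma crystallin genes of lens fibres averaged at most 1.10 CPM (counts scaled to library size) in either, and Crybb2, Cryga and Lim2 had no counts. Other genes of the lens list were present: Cryab averaged 186 CPM in mutant and 206 CPM in wildtype libraries, Bfsp1 4.57 and 6.20 CPM, and Bfsp2 32.5 and 42.5 CPM, the last called lower (edgeR adjusted p = 0.00957). Libraries stood apart in Gm42418, a gene that overlaps ribosomal RNA. It took 0.0673% of the counts in mutant 2 and 4.11% to 6.91% in the other mutants, and 4.54% in wildtype 1, 0.0663% in wildtype 2 and 0.0708% in wildtype 3.

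Of the 9 genes, 2 were higher in mutant than in wildtype anterior segments and 0 were lower by edgeR's quasi-likelihood test, at a Benjamini-Hochberg adjusted p under 0.05 over the 15825 genes with enough counts. These were Spred2, 1.44-fold higher, and Dusp6, 1.26-fold higher. Over all genes tested, 9.7% were called higher and 9.47% lower, and with 9 members the count was not set against that share by a test. At an unadjusted p under 0.05, 5 of the 9 genes differed, all higher in mutant libraries, a side on which 17.3% of all genes passed that threshold. DESeq2 called the same 2 higher and 0 lower, against 12.4% and 11.5% of all genes. The median log2 fold change of the 9 genes was 0.22, beside -0.0019 over all genes tested.

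Every mutant library lay above every wildtype library for the same 2 genes, Spred2 and Dusp6, which held for 10.8% of all genes tested, while 0 of the 9 lay wholly below, against 11.2% of all genes. Of the other 7 genes, 5 had a log2 fold change above 0 and 2 below, and their groups overlapped.

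**Figure D1:**
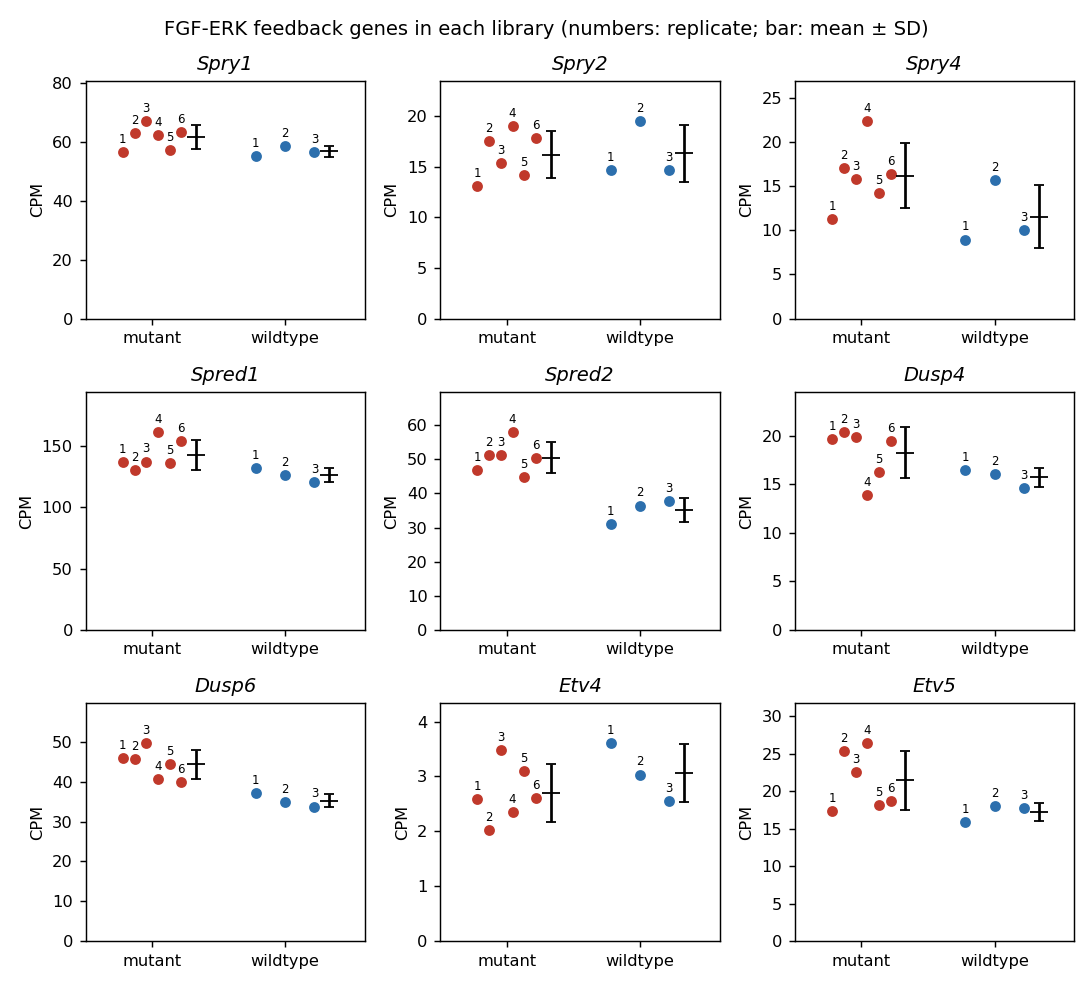
CPM (vertical axes, each from 0 and scaled to its gene) of the 9 genes in 6 mutant and 3 wildtype libraries; numbers are replicate numbers and bars give mean ± SD. The groups are apart for Spred2 (44.8 CPM and above in mutant, 37.8 and below in wildtype) and Dusp6 (39.96 and above in mutant, 37.1 and below in wildtype) and overlap for the other 7 genes.

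Among libraries with over 1% Gm42418 (5 mutants, 1 wildtype) the mean log2 CPM of Spred2 was 0.69 higher in mutant, and among the others (1 mutant, 2 wildtypes) 0.46 higher. For Dusp6 these differences were 0.25 and 0.42, for Spry4 0.80 and 0.44 and for Etv5 0.36 and 0.50, with no test because 1 genotype in each set is a single library.

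Several cell type markers moved with genotype as well, and in bulk tissue a change in the number of cells of a type cannot be told apart from a change of RNA per cell. Vascular endothelial markers, 7 of 10 called higher and 0 lower by edgeR, summed to 688 to 779 CPM in mutant and 520 to 604 CPM in wildtype libraries. Macrophage markers, 4 of 10 higher, summed to 380 to 537 CPM in mutant and 265 to 277 CPM in wildtype libraries, and red cell markers, 4 of 8 higher, to 1797 to 8786 CPM and 534 to 950 CPM. Mesenchymal markers, 2 of 10 higher, summed to 1137 to 1350 CPM in mutant and 967 to 1066 CPM in wildtype libraries. Keratocyte markers, 5 of 10 lower, summed to 26040 to 46264 CPM in mutant and 35754 to 45130 CPM in wildtype libraries. Most of that sum was Col1a1 and Col1a2, which were not called. The 5 that were lower were Kera, Lum, Dcn, Aldh3a1 and Tkt, with a log2 fold change of -0.88 for Kera. Pericyte and smooth muscle markers, 4 of 10 in each direction, summed to 1359 to 1567 CPM and 1632 to 1755 CPM. Pdgfrb, Cspg4, Abcc9 and Mcam were higher, and the more abundant Acta2, Myh11 and Tagln were lower, as was Cnn1. Pigment cell markers, 0 of 7 tested called in either direction, came to 13856 to 15517 CPM in mutant and 15585 to 16275 CPM in wildtype libraries. These sums did not overlap but lay close together. The lens list, 1 of 8 tested lower, came to 210 to 233 CPM in mutant and 257 to 261 CPM in wildtype libraries. Corneal and surface epithelial markers, 1 of 10 in each direction, summed to 7454 to 8633 CPM in mutant and 7882 to 8849 CPM in wildtype libraries. The part of these cell types in the change of Spred2, Dusp6 and the other pathway genes was not tested.

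The Sprouty proteins bind adaptors and RAF and hold back RAS activation downstream of growth factor receptors. Spry1 (ENSMUSG00000037211, chromosome 3, 37639947 to 37644598, plus strand of GRCm38) ran from 56.5 to 67.1 CPM in mutant libraries with a median of 62.5, against 55.1, 58.6 and 56.5 CPM in wildtype 1, 2 and 3. Most mutant libraries stood a little above wildtype, but mutants 1 and 5 lay within the wildtype range. The log2 fold change of mutant over wildtype was 0.12 (95% interval -0.06 to 0.29, edgeR adjusted p = 0.345). An unclassified transcript on the opposite strand, not analysed here, shares 710 exon bases with Spry1, so reads of the 2 cannot be told apart if the counting ignored strand.

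Spry2 (ENSMUSG00000022114, chromosome 14, 105891947 to 105896819, minus strand) spanned 13.1 to 19.0 CPM in mutant libraries, with a median of 16.5, against 14.7, 19.5 and 14.7 CPM in wildtype 1 to 3. The highest of all 9 libraries was wildtype 2 and the lowest mutant 1, and the ranges of the groups largely overlapped. Its log2 fold change was -0.01, with a 95% interval of -0.32 to 0.29 (edgeR adjusted p = 0.966), an interval that spans changes in both directions.

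Spry4 (ENSMUSG00000024427, chromosome 18, 38586247 to 38601415, minus strand) had the largest log2 fold change of the 3 Sprouty genes. It ranged from 11.3 to 22.4 CPM in mutant libraries with a median of 16.0, against 8.96, 15.7 and 10.03 CPM in wildtype 1 to 3. Wildtype 2 stood with the mutants, and mutant 1 stood next to wildtype 3. The log2 fold change was 0.49 (SE 0.20, 95% interval 0.05 to 0.92, an interval that takes no account of the number of genes), and the test was not passed (edgeR adjusted p = 0.104). The call turned on single libraries: without wildtype 2 the log2 fold change was 0.77 and the gene was called (edgeR adjusted p = 0.0221), and without mutant 1 it was called as well (0.57, edgeR adjusted p = 0.0422), while without wildtype 1 it was 0.33 (edgeR adjusted p = 0.414). Limma-voom with quality weights on all 9 libraries also called it higher (0.57, adjusted p = 0.00863).

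Spred proteins share the Sprouty cysteine-rich domain and recruit neurofibromin, the RAS GTPase-activating protein encoded by Nf1, to the membrane. Spred2 (ENSMUSG00000045671, chromosome 11, 19924375 to 20024026, plus strand) had 46.9, 51.2, 51.2, 58.1, 44.8 and 50.5 CPM in mutants 1 to 6, against 31.0, 36.5 and 37.8 CPM in wildtype 1 to 3. All 6 mutant libraries exceeded all 3 wildtype libraries, and the gap between the nearest of them, mutant 5 and wildtype 3, was wider than the SD within either group. The means were 50.4 ± 4.56 CPM in mutant (SD, n = 6) and 35.1 ± 3.59 CPM in wildtype (SD, n = 3), a log2 fold change of 0.52 (SE 0.101, 95% interval 0.31 to 0.74, edgeR adjusted p = 0.00377). The gene was called with each of the 9 libraries left out in turn, with log2 fold changes of 0.44 to 0.58 and adjusted p between 0.00236 and 0.0448 (edgeR). With the summed lens list as a covariate, whose groups do not overlap, it was not called (0.25, edgeR adjusted p = 0.793).

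Spred1 (ENSMUSG00000027351, chromosome 2, 117121374 to 117182279, plus strand) had the most CPM and the longest exon sequence of the 9 genes, 6784 bases. It ranged from 130 to 162 CPM in mutant libraries with a median of 137, against 132, 126 and 120 CPM in wildtype 1 to 3. Mutants 4 and 6 were the highest, mutant 2 lay inside the wildtype range, and the log2 fold change was 0.18 (95% interval 0.01 to 0.35, edgeR adjusted p = 0.135). With the trend of expression on exon length removed from each library it was 0.06 (edgeR adjusted p = 0.626), while limma-voom with quality weights called the gene (0.18, adjusted p = 0.0432).

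The difference between the Spred genes was itself tested, as the log2 ratio of their CPM within each library, which hardly depends on how libraries are scaled. Spred2 over Spred1 averaged -1.4995 ± 0.104 in mutant libraries (SD, n = 6) and -1.85 ± 0.214 in wildtype libraries (SD, n = 3), and lay between -1.61 and -1.35 in mutants and between -2.08 and -1.67 in wildtypes. The difference of 0.35 had an exact two-sided permutation p of 0.0119, the smallest that the 84 splits of 9 libraries allow (adjusted p = 0.0357 over the 6 ratios tested within families). Mutant libraries thus held more Spred2 RNA per Spred1 RNA, in 6 of 6 libraries above all wildtype libraries. Spred2 alone also lay wholly above wildtype, as 10.8% of all genes tested did. How often ratios of other gene pairs lie apart between the genotypes was not computed.

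Among the Sprouty genes, Spry2 over Spry4 averaged 0.02 ± 0.157 in mutant libraries (SD, n = 6) and 0.52 ± 0.196 in wildtype libraries (SD, n = 3), a difference of -0.51 (exact two-sided permutation p = 0.0119, adjusted p = 0.0357). The groups did not overlap, with -0.24 to 0.22 in mutants and 0.32 to 0.71 in wildtypes, although each gene alone overlapped and did not pass the test. Spry2 and Spry4 differ in exon length, 2087 and 4755 bases, and no ratio was recomputed with the exon length trend removed. In the edgeR fit with that trend removed, the log2 fold change was 0.13 for Spry2 and 0.45 for Spry4. For Spred2 and Spred1 it was 0.50 and 0.06. Spry1 over Spry4 differed by -0.38 (adjusted p = 0.25, exact permutation) and Spry1 over Spry2 by 0.12 (adjusted p = 0.381, exact permutation). With any 1 library left out, the adjusted p of the called ratios could not fall under 0.0536 given 2 such ratios among 6, and their differences ran from 0.23 (without wildtype 1) to 0.44 for Spred2 over Spred1 and from -0.61 to -0.41 for Spry2 over Spry4.

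**Figure D2:**
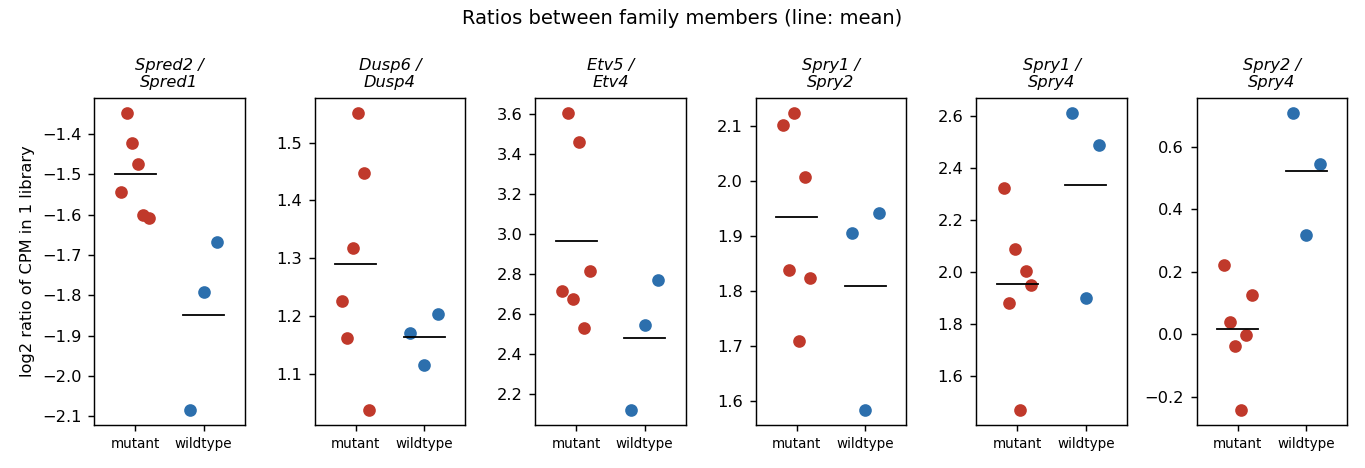
Log2 ratio of CPM between members of 1 family in each of 6 mutant and 3 wildtype libraries (vertical axes, each scaled to its own ratio; lines give means). Mutant and wildtype libraries do not overlap for Spred2 over Spred1 and for Spry2 over Spry4, and overlap for the other 4 ratios.

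Dusp6 encodes a phosphatase specific for ERK in the cytoplasm and is a widely used readout of FGF signalling in mouse embryos. Dusp6 (ENSMUSG00000019960, chromosome 10, 99263231 to 99267489, plus strand) had 46.0, 45.8, 49.8, 40.8, 44.5 and 39.96 CPM in mutants 1 to 6, against 37.1, 34.8 and 33.8 CPM in wildtype 1 to 3. Every mutant was above every wildtype, with mutants 4 and 6 nearest to wildtype 1. The means were 44.5 ± 3.64 CPM in mutant (SD, n = 6) and 35.2 ± 1.69 CPM in wildtype (SD, n = 3), a log2 fold change of 0.34 (SE 0.093, 95% interval 0.14 to 0.53, edgeR adjusted p = 0.0205). The call was lost without wildtype 1 (0.38, edgeR adjusted p = 0.0673), without wildtype 3 (0.31, edgeR adjusted p = 0.0898) and with Gm42418 as a covariate (0.33, edgeR adjusted p = 0.0653), while the fold change itself stayed between 0.30 and 0.38 over the libraries left out in turn. With the lens covariate it was not called either (0.53, edgeR adjusted p = 0.46).

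Dusp4 (ENSMUSG00000031530, chromosome 8, 34807297 to 34819894, plus strand), the nuclear phosphatase of ERK, spanned 13.9 to 20.4 CPM in mutant libraries with a median of 19.5, against 16.4, 16.0 and 14.6 CPM in wildtype 1 to 3. Mutants 1, 2, 3 and 6 were above all wildtypes, mutant 5 fell among them and mutant 4 was the lowest of all 9. The log2 fold change was 0.22 (95% interval -0.07 to 0.50, edgeR adjusted p = 0.273). The ratio of Dusp6 over Dusp4 differed by 0.13 between mutant and wildtype (adjusted p = 0.357, exact permutation over the 84 splits), so a difference between the phosphatase genes in their response was not shown.

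The RefSeq promoter windows of Spred2 and Dusp6 are printed because these are the genes whose RNA rose, with that of Spred1 as the family member beside Spred2 that was not called. Each window runs from 250 bases before to 50 bases after the gene start in RefSeq, 5′ to 3′ on the gene's strand, in GRCm38.p6. Capitals mark CGGAAG or its reverse complement CTTCCG, letters bound by many ETS factors. The windows lie at chr11:19924192-19924491 for Spred2, chr10:99262981-99263280 for Dusp6 and chr2:117120821-117121120 for Spred1, all on the plus strand.
Spred2: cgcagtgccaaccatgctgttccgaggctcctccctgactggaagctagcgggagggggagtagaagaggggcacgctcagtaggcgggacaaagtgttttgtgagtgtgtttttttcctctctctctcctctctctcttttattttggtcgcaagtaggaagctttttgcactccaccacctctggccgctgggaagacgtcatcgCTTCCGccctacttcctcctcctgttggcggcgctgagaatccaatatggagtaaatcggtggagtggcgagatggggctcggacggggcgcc
Dusp6: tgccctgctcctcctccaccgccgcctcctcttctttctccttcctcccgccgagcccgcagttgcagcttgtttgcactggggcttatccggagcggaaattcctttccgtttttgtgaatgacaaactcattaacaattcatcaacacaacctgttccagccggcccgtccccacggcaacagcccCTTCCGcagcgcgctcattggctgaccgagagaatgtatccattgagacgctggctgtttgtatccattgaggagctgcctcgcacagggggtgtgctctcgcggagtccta
Spred1: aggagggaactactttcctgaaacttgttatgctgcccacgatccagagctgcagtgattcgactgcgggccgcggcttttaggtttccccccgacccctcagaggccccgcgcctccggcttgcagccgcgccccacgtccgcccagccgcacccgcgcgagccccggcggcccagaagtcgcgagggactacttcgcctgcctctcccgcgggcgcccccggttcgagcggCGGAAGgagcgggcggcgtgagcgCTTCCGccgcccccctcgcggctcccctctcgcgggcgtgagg

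CGGAAG was found on either strand in 16.9% of 32851 windows of 300 bases, TGANTCA, the letters of AP-1, in 7.81%, and TGACG, the core letters of the cAMP response element, in 20.8%. Windows were at hand for 6 of the 9 genes, with 7 windows in all. CGGAAG stood 43 bases before the RefSeq start of Spred2, 62 bases before that of Dusp6, and in Spred1 at 17 bases before and 8 bases after it. For Spred2 and Spred1 these starts differ from the gene starts given above, 19924375 and 117121374. The Spred1 window ends before the latter. The windows of Spry1, Spry2 and Etv5 held none of the 3 motifs, TGACG occurred in that of Spred2 and overlapped no CGGAAG, and TGANTCA occurred in none of the 7. Matches of CGGAAG thus stood in the windows of both called genes and of 1 gene that was not called, and they describe letters, not bound sites. The motifs were chosen after the windows had been read, so the matches were not tested against the shares over all windows.

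Etv4 and Etv5 belong to the PEA3 group of ETS factors, which FGF signalling induces in limb, lung and lens. Etv5 (ENSMUSG00000013089, chromosome 16, 22381309 to 22439719, minus strand) ranged from 17.4 to 26.5 CPM in mutant libraries, with a median of 20.7, against 15.9, 18.0 and 17.8 CPM in wildtype 1 to 3. Mutants 2, 3 and 4 stood clear of the wildtypes at 22.6 CPM or more, mutants 5 and 6 were just above wildtype 2, and mutant 1 lay among the wildtypes. The log2 fold change was 0.32 (95% interval 0.01 to 0.62, edgeR adjusted p = 0.135).

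Etv4 (ENSMUSG00000017724, chromosome 11, 101769742 to 101785371, minus strand) was the scarcest of the 9 genes, at 2.03 to 3.49 CPM in mutant libraries with a median of 2.601, against 3.61, 3.04 and 2.55 CPM in wildtype 1 to 3. Mutants 2 and 4 lay below every wildtype, wildtype 1 lay above every mutant, and the other libraries overlapped. Its log2 fold change of -0.18 had a 95% interval of -0.67 to 0.30 (edgeR adjusted p = 0.616), which leaves room for a change in either direction at this depth. Etv5 over Etv4 differed by 0.49 between the groups (adjusted p = 0.25, exact permutation).

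**Figure D3:**
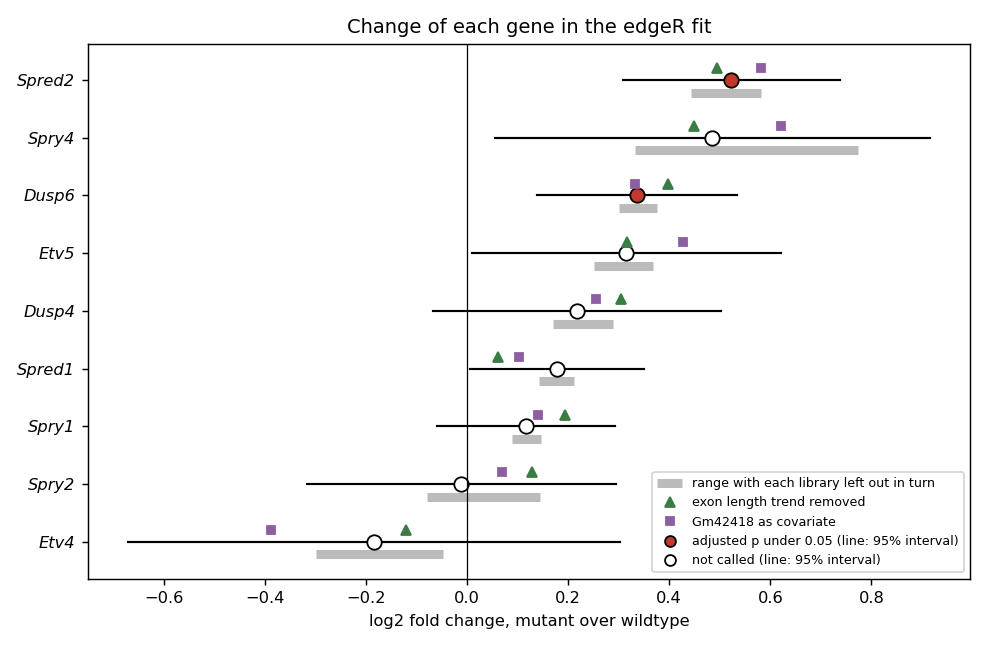
Log2 fold change of mutant over wildtype (horizontal axis) for the 9 genes in the edgeR fit with its 95% interval (circles; filled where the adjusted p was under 0.05), beside the range with each library left out, the fit with the exon length trend removed and the fit with Gm42418 as covariate. Spred2 at 0.52 and Dusp6 at 0.34 are called, and the Spry4 range of 0.33 to 0.77 over left-out libraries is the widest.

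Levels were compared between genes as CPM per kilobase of annotated exon, a level and not a difference. Spry1 and Spred1 led in both genotypes, at 21.2 ± 1.38 and 21.0 ± 1.79 in mutant libraries (SD, n = 6) and 19.5 ± 0.615 and 18.6 ± 0.85 in wildtype libraries (SD, n = 3), and overlapped each other in each genotype. Dusp6 came next with 14.2 ± 1.16 in mutant and 11.2 ± 0.538 in wildtype libraries, apart from the genes next to it in both genotypes. Spred2 stood at 10.9 ± 0.988 in mutant libraries, above the whole range of Spry2 (6.29 to 9.08), whereas in wildtype libraries Spred2 (6.72 to 8.18) and Spry2 (7.03 to 9.35) overlapped. Dusp4 had 6.66 ± 0.951 in mutant and 5.73 ± 0.347 in wildtype libraries, Etv5 5.23 ± 0.956 and 4.20 ± 0.281, and Spry4 3.40 ± 0.775 and 2.43 ± 0.758. Spry2 and Dusp4, Dusp4 and Etv5, and Etv5 and Spry4 overlapped in mutant libraries and were apart in wildtype libraries, and Etv4 was last, at 0.868 ± 0.169 and 0.988 ± 0.171.

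Within a genotype the 9 genes did not move as 1 block. Among the mutants, mutant 4 was the highest library for 5 genes, Spry2, Spry4, Spred1, Spred2 and Etv5, and the lowest for Dusp4. In log2 CPM it stood 0.50 above the mutant mean for Spry4 and 0.32 above for Etv5, and at -0.38 for Dusp4 and -0.12 for Dusp6. Mutant 1 was the lowest mutant for 4 genes, Spry1, Spry2, Spry4 and Etv5, with deviations of -0.49 for Spry4 and -0.28 for Etv5, yet lay above the mutant mean for Dusp4 and Dusp6.

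Wildtype 2 was the highest wildtype for Spry1, Spry2, Spry4 and Etv5 and the lowest for none of the 9, and its Spry4 deviation was 0.48. Wildtype 1 was the highest for Spred1, Dusp4, Dusp6 and Etv4 and the lowest for Spry1, Spry4, Spred2 and Etv5. Spry4, Spry2 and Etv5 thus took their highest values in the same mutant library and their highest values in the same wildtype library, while Dusp4 and Dusp6 peaked in others.

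**Figure D4:**
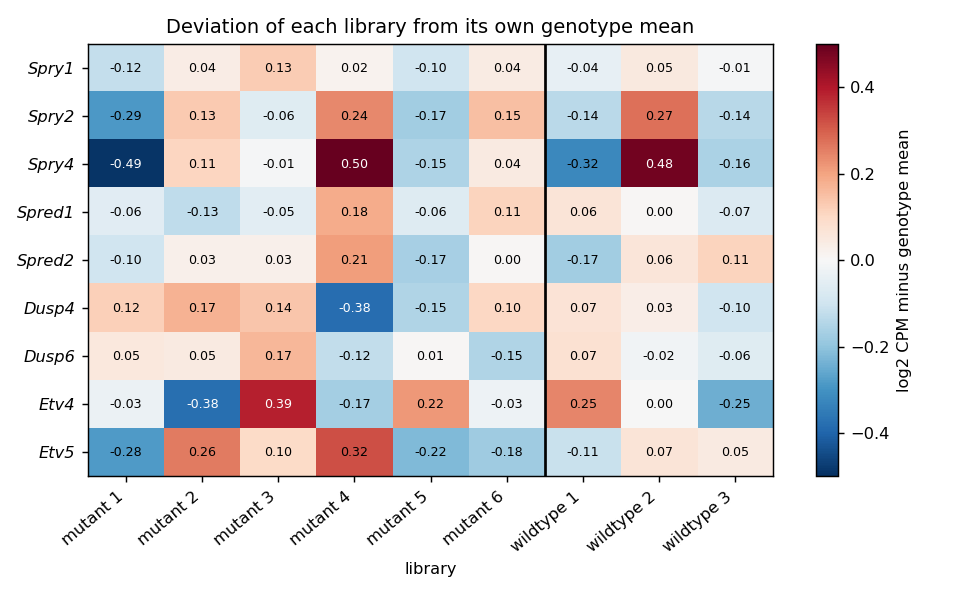
Log2 CPM of each gene in each library minus the mean of the library's own genotype (colour and printed value), 6 mutant libraries left of the line and 3 wildtype libraries right of it. Spry4 reaches 0.50 in mutant 4 and 0.48 in wildtype 2, the libraries where Spry2 and Etv5 are also highest, while Dusp4 is at -0.38 in mutant 4.

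For the called genes, the protein-coding genes of most similar profile were found as the smallest root-mean-square difference of log2 CPM, each gene centred on its mean, over the 9 libraries and 11368 genes of at least 5 CPM. For Spred2 these were Tns3, at 0.037, Frmd4b, at 0.0504, and Creb3l2, at 0.0521. For Dusp6 they were Pias1, at 0.0731, Slc27a1, at 0.0797, and Etv3, at 0.0826. Tns3 averaged 174 CPM in mutant and 123 CPM in wildtype libraries, and Pias1 47.6 and 38.0 CPM. The profiles span both genotypes, so the genotype difference of the called gene was part of what was matched. The 9 genes themselves were left out of this search.

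The other genes of the pathway came from lists of 111 genes, of which 98 could be tested. Of these, 27 were called higher and 3 lower (9.7% and 9.47% over all genes), with a median log2 fold change of 0.20. The lists were chosen with earlier results of these data known, so the counts were not tested against those shares. Counts that follow are edgeR calls of mutant over wildtype unless DESeq2 is named, and an unadjusted p under 0.05 was reached by 34% of all genes in either direction. Without wildtype 1 these counts were 6 higher and 1 lower, and those over all genes 303 higher and 235 lower.

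In the list of FGF ligands 13 of 22 genes could be tested. Of these, 0 were higher by edgeR and 0 by DESeq2, and 1 was lower, with 1 gene at an unadjusted p under 0.05. The tested genes include Fgf11, Fgf12, Fgf13 and Fgf14, which encode intracellular proteins and not receptor ligands, and which were not called. The ligand that was lower, Fgf21, a hormone-like FGF, averaged 1.03 ± 0.307 CPM in mutant (SD, n = 6) and 2.86 ± 0.491 CPM in wildtype libraries (SD, n = 3), a log2 fold change of -1.46 (edgeR adjusted p = 0.0043), and lost its call without wildtype 1 (edgeR adjusted p = 0.0521). Of the FGF receptor genes 5 were tested and 0 were called by edgeR, with 2 at an unadjusted p under 0.05 and 1 called higher by DESeq2. Fgfr2, the receptor with the lowest p, had 205 ± 12.3 CPM in mutant and 178 ± 14.1 CPM in wildtype libraries (SD, n = 6 and n = 3), a log2 fold change of 0.21 (edgeR adjusted p = 0.0719).

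Of 16 genes for other receptor tyrosine kinases that signal through ERK, 10 were higher and 0 lower by edgeR (14 at an unadjusted p under 0.05, 13 higher and 0 lower by DESeq2), with a median log2 fold change of 0.46. Erbb3, a receptor for neuregulins, had 70.9 ± 6.32 CPM in mutant and 47.2 ± 6.86 CPM in wildtype libraries, 1.502-fold higher (edgeR adjusted p = 0.00253). The PDGF receptor gene Pdgfrb was 1.46-fold higher, the stem cell factor receptor gene Kit 1.45-fold and the VEGF receptor gene Kdr 1.502-fold. Erbb3, Pdgfrb and Kit kept their calls whichever library was left out, and Kdr lost it without wildtype 1 (edgeR adjusted p = 0.05003). Of the 10, Pdgfrb also stands in the pericyte marker list and Tek in the endothelial one. Kdr and a second VEGF receptor gene, Flt1, are known as endothelial genes, and endothelial markers were higher as given above. Tek and Flt1 are named for this reason alone. Flt1 was 1.55-fold higher (edgeR adjusted p = 0.01525) and lost its call without wildtype 1 or 3. With exon length removed, 7 of these genes were higher and 1 lower, and without wildtype 1, 3 were higher.

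Of 11 adaptor genes 5 were higher and 0 lower (5 at an unadjusted p under 0.05, 5 and 0 by DESeq2). Gab1, a docking protein of many receptors, was 1.46-fold higher, with 93.8 ± 8.56 CPM in mutant and 64.4 ± 7.68 CPM in wildtype libraries (edgeR adjusted p = 0.00259), and was called with every library left out. Frs2, which couples FGF receptors to Grb2 and Sos, was 1.27-fold higher, the exchange factor gene Sos1 1.43-fold and Crkl 1.27-fold, and these 3 lost their calls without wildtype 1. After removal of the length trend Frs2 was not called (edgeR adjusted p = 0.109).

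The RAS to ERK cascade split, with 3 of 18 genes higher and 2 lower (9 at an unadjusted p under 0.05, 4 and 2 by DESeq2). The median log2 fold change was 0.05. Hras, a RAS gene, had 89.3 ± 4.58 CPM in mutant and 125 ± 6.74 CPM in wildtype libraries, 1.39-fold lower (edgeR adjusted p = 0.00113), and was called with every library left out. Braf, a RAF kinase gene, was 1.52-fold higher, the ERK-activated kinase gene Rps6ka3 1.37-fold and Nras 1.27-fold. Each lost its call without wildtype 1, and Nras also without wildtype 2. The second gene that was lower, Rras, named after its value was seen, had a log2 fold change of -0.38 and was not called after removal of the length trend (edgeR adjusted p = 0.302) or without wildtype 1 or 3. Of 8 tested genes for RAS GTPase-activating proteins, 2 were higher and 0 lower by edgeR (3 at an unadjusted p under 0.05, 2 and 0 by DESeq2): Rasal2, 1.46-fold higher, which lost its call without wildtype 1, and Nf1, the partner of the Spred proteins, 1.37-fold higher at 52.0 ± 12.0 CPM in mutant and 37.8 ± 3.55 CPM in wildtype libraries (edgeR adjusted p = 0.0455). Nf1 was not called after removal of the length trend (edgeR adjusted p = 0.25), nor without any 1 of the wildtypes or without mutant 3, 5 or 6.

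Of 13 further feedback genes tested, 4 were higher and 0 lower by edgeR (5 at an unadjusted p under 0.05, 5 and 0 by DESeq2), with a median log2 fold change of 0.20, close to the 0.22 of the 9 genes. Il17rd, the membrane inhibitor of FGF signalling also called Sef, had 49.6 ± 5.58 CPM in mutant and 34.1 ± 2.08 CPM in wildtype libraries, 1.46-fold higher (edgeR adjusted p = 0.00362), and was called with every library left out. Errfi1, an inhibitor of EGF receptors, was 1.42-fold higher, and the FLRT membrane protein genes Flrt2 and Flrt3 were 1.35-fold and 1.30-fold higher. These 3 lost their calls without wildtype 1, and Flrt3 also without wildtype 3 or mutant 3, 5 or 6 and after removal of the length trend (edgeR adjusted p = 0.0635).

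Of 14 immediate early genes, which ERK switches on within minutes, 3 were higher and 0 lower by edgeR (4 at an unadjusted p under 0.05, 3 and 0 by DESeq2). In the whole list 11 genes had a log2 fold change above 0 and 3 below. Fos, Egr1, Jun, Junb and Ier2, named after their values were seen, were not called (edgeR adjusted p from 0.516 to 0.929). Their log2 fold changes were -0.13, 0.07, -0.11, 0.05 and -0.11. Fosl2 was 1.59-fold higher, at 222 ± 23.2 CPM in mutant and 140 ± 25.8 CPM in wildtype libraries (edgeR adjusted p = 0.00203), and was called with every library left out. Myc was 1.45-fold higher and lost its call without any 1 of the wildtypes and without mutant 1, 3, 5 or 6. Egr3 had 82 counts over the 6 mutant libraries, 28 of them in mutant 1, and 1 count over the 3 wildtype libraries, a ratio of 35.6 with a 95% exact interval of 6.22 to 1424 that covers counting error only, and it passed the low-count filter through the mutant libraries alone. With libraries left out in turn it was called in 5 fits, did not pass the filter in 3 and was not called without wildtype 1 (edgeR adjusted p = 0.0673).

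**Figure D5:**
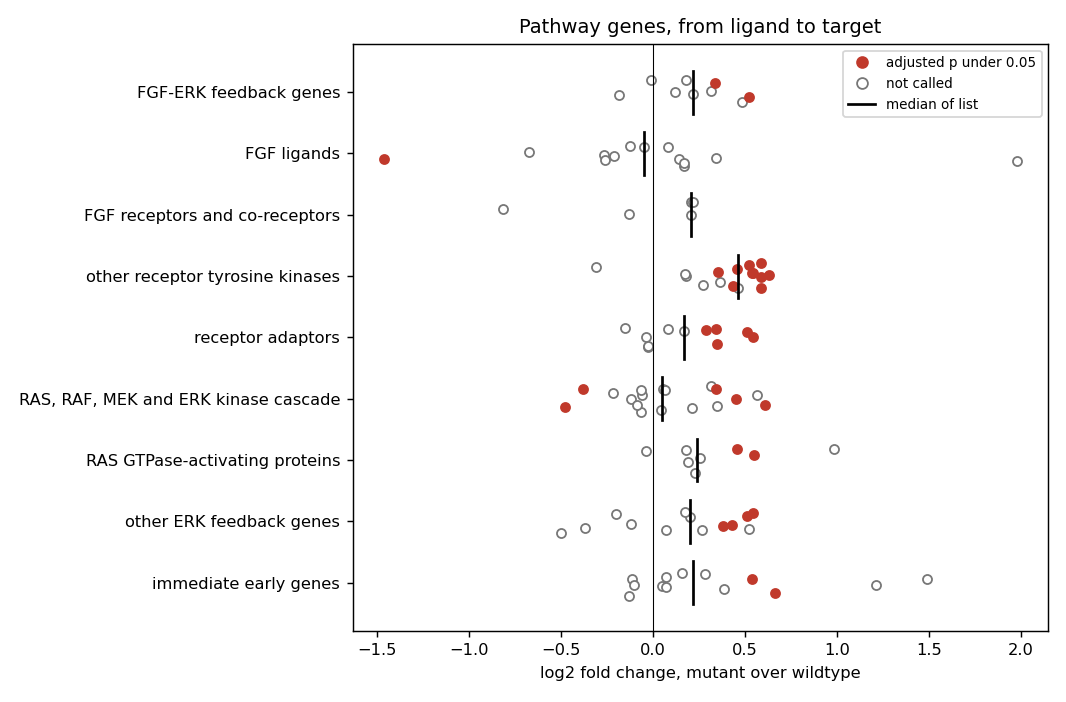
Log2 fold change of mutant over wildtype (horizontal axis) for each tested gene of the 9 feedback genes and of 8 pathway lists ordered from ligand to target (filled: adjusted p under 0.05; line: median of the list; Egr3, with 1 wildtype count, is in the median but not drawn). Other receptor tyrosine kinases have the highest median, 0.46, with 10 called higher. The FGF ligand list, which includes the intracellular Fgf11, Fgf12, Fgf13 and Fgf14, has the lowest, -0.05, with 1 called lower.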

How the data were processed

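Bulk RNA had been sequenced from 6 mutant and 3 wildtype pools. Values are the deposited raw read counts per Ensembl gene, with no normalization by the authors. STAR 2.6.1, HTSeq 0.6.1, DESeq2 1.6.3 and GRCm38 (mm10) are named without roles, per the submitters' processing notes. Neither annotation release nor strand setting is given in the sources used here. Symbols, positions and exon lengths came from the GENCODE annotation of GRCm38, which held 34490 of 35275 identifiers, and 0 count columns lacked a sample.

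Counts were tested with edgeR 4.0.16 in R 4.3.3: default low-count filter by genotype, TMM scaling, a robust quasi-likelihood fit on genotype alone, and adjustment by Benjamini-Hochberg over 15825 genes, all 9 members among them. CPM use TMM library sizes. Intervals of fold changes are 95% t intervals of the fit. Ratios used log2 CPM with a prior count of 2. Alternatives used other scalings and filters, DESeq2 1.42.0, limma 3.58.1 (voom), a replicate block, covariates, left-out libraries, and removal of a smooth exon length trend per library (mgcv 1.9.3). The steps were tested on simulated data.

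The members and lists were chosen with earlier results of these data known. Named were all members, up to 4 called genes of lowest p per pathway list (the 1 of lowest p in a list with none), and 3 genes of nearest profile per called member. Pathway genes named outside this rule are marked where they stand. Motifs were chosen after the windows had been read. Library pairs within a genotype differed by far more than sampling noise (chi-square per degree of freedom of at least 15.5), so each library was 1 replicate.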

Additional observations from a re-analysis of the deposited data

How the results depend on the processing

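Over 19 alternatives, 149 of 170 values of the 9 genes kept direction and side of the threshold. The gain of Spry4 and Spred1 under limma-voom with quality weights made 4 members called higher, against 2359 higher and 2328 lower over all genes. Gm42418 as covariate left 1 member, with 794 and 834 genes. The replicate block, for which same-numbered libraries had correlations of 0.0947, 0.0258 and -0.104 and so share only a number (not every library correlated best with its own number), left 2 members called, with 814 and 671 genes. Replicates 4, 5 and 6 exist only as mutants, so under the block genotype was compared within replicates 1, 2 and 3. With exon length removed 911 genes were higher and 1239 lower. The lens list as covariate, whose summed level was 210 to 233 CPM in mutant and 257 to 261 in wildtype, cannot be told apart from genotype: 0 members, 1 pathway gene higher and 0 lower (edgeR), 28 and 2 genes in all, and values of 0.25 for Spred2, 0.53 for Dusp6, 0.87 for Dusp4, -0.39 for Spry4, -0.15 for Spred1 and -0.11 for Etv5. The Spry2 value, near 0, was 0.046 with limma-voom, 0.00053 with no filter, 0.13 with exon length removed and 0.069 with Gm42418, and Etv4 was 0.015 with limma-voom. With each library left out in turn, 1 to 3 members were called higher (1 without wildtype 1 or 3), 6 to 29 pathway genes higher and 1 to 3 lower. Over all genes, 303 to 1688 were higher and 235 to 1577 lower, and Spry2 ran from -0.0797 to 0.15. The exact permutation test then called 0 ratios, because the adjusted p of the 2 called ratios could not fall under 0.0536. The cause of the other shifts was not tested. Etv4, at 2.03 to 3.49 CPM in mutant and 2.55 to 3.61 CPM in wildtype libraries, did not pass a filter of 5 CPM in 3 libraries, and has no value there.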
